A study of Homo sapiens with 2 samples.

Results

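XAF1, RTP4, IFI6, IFI27, IFI44, IFI44L, TNFSF10, PLSCR1 and SAMD9 are interferon-stimulated genes, several of them known for a part in cell death, and they make up 9 of the 19218 genes measured in PC3 cells after SUB1 knockdown. Every probe named for 1 of these genes, under its current symbol or an older alias, was taken on both arrays, which gave 17 probes. The 9 genes were chosen from the ratios on these same arrays, because several of them were higher with SUB1 siRNA 2 than with SUB1 siRNA 1. Their ratios are therefore a description, and no test was made of them. PC3 is an established prostate cancer cell line derived from a metastasis. The cells were transfected with Non-T siRNA, a non-targeting control, or with 1 of 2 siRNA duplexes against SUB1, which encodes a transcriptional coactivator. They were transfected again 24 h later and harvested 72 h after the first transfection. On each of the 2 dual-colour arrays, RNA of Non-T siRNA cells carried Cy3 and RNA of SUB1 siRNA cells carried Cy5, with 1 array for each SUB1 siRNA, no replicate and no dye swap. All groups were transfected cells, and untransfected cells and interferon-treated cells were not analysed here.

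Interferons bind receptors at the cell surface and, through JAK kinases, activate transcription factors that include STAT2 and IRF9. These factors bind a short DNA element, the interferon-stimulated response element, in the promoters of many genes and switch them on. The products include antiviral proteins and proteins that restrain growth or prime the cell for apoptosis. XAF1 binds XIAP and counters its block of caspases, TNFSF10 encodes TRAIL, a ligand of death receptors, and IFI27 is a small mitochondrial protein that sensitizes cells to apoptosis. IFI6 is a related mitochondrial protein that is known instead to delay apoptosis, so the genes do not all act in 1 direction on cell death. RTP4 is a chaperone that helps receptors reach the cell surface, and PLSCR1 is a phospholipid scramblase of the plasma membrane. SAMD9 is an antiviral protein that restrains growth, and IFI44 and IFI44L are related proteins of the antiviral response.

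The core letters of this element, GAAANNGAAA, were searched on both strands in RefSeq promoter windows (GRCh38.p14) that run from 250 bases before to 50 bases after each start site. All 9 genes had a window, and 8 of them held the letters, 13 sites in all. Of all 27305 genes with a window, 1195 held them (4.38%). The genes were listed as interferon-stimulated, and the element is known to switch such genes on. The count of 8 of 9 is thus not independent of their choice, and nothing is read from it. The site nearest to the start of transcription is shown for each of the 8 genes. Each line gives 30 bases, 5′ to 3′ on the strand of the gene, with the matched letters in capitals. IFI44 and TNFSF10 hold the motif on the opposite strand, where it reads TTTCNNTTTC.
RTP4: accgaacaccGAAACTGAAActgtttgtct
TNFSF10: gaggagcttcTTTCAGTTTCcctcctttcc
IFI6: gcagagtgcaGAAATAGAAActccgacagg
IFI27: cggtttcctgGAAAATGAAAcctatctcat
IFI44L: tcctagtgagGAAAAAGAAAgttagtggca
SAMD9: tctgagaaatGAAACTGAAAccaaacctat
PLSCR1: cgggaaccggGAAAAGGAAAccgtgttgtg
IFI44: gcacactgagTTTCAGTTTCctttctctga

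In RTP4 the capitals lie at chr3:187368367-187368376, 18 to 9 bases before the start of transcription, and 2 sites were found in its window. IFI44 held its only site at chr1:78649771-78649780, at the same distance from 1 of its 2 start sites and 60 to 51 bases before the other. IFI6 held 3 sites, the most of the 9 genes, and the site shown lies at chr1:27672276-27672285. IFI44L held 2 sites, and the 30 bases shown, with the capitals at chr1:78620375-78620384, occur a second time in its window at chr1:78620284-78620293. IFI27 held 2 sites on opposite strands, with the 1 shown at chr14:94110641-94110650. PLSCR1 held 1 site at chr3:146544677-146544686 and SAMD9 1 site at chr7:93118106-93118115. The site of TNFSF10, at chr3:172523608-172523617, begins 187 bases before the start of transcription, the farthest of the 8 sites shown. Neither of the 2 windows of XAF1 held these letters. A match is a run of letters and not a measured binding site, and the absence of a match says only that these letters are not in the window.

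SUB1 itself was low on both arrays, which checks the channel that carried SUB1 siRNA RNA. It was low to a like degree on both, so it cannot check which array held which siRNA. The probe that stood for SUB1 read -3.30 (log2 ratio to Non-T cells) under siRNA 1 and -3.26 under siRNA 2, leaving 10.2% and 10.4% of the control signal. All 4 SUB1 probes were low, between -3.75 and -1.81 for siRNA 1 and between -3.50 and -1.57 for siRNA 2. The arrays were alike in signal. Spots well above background made up 54.3% of gene spots in Cy3 on both arrays, and 67.2% and 64.5% in Cy5. Over the 208 probes spotted 10 times, the median SD of the log2 ratio among spots was 0.08 with siRNA 1 and 0.07 with siRNA 2. All 4 epithelial markers examined (KRT8, KRT18, EPCAM and CDH1) were well above background in Non-T cells. Of 8 markers of blood, endothelial and fibroblast cells, 4 were not well above background, among them PTPRC, VWF and COL3A1. The other 4 were flagged above it at Cy3 intensities of 110 to 164, near the median gene spot (128 and 114). The epithelial marker CDH1 lay in that range too, at 141 (siRNA 1 array) and 126 (siRNA 2 array).

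With SUB1 siRNA 2 all 9 genes had a log2 ratio above 0, and 5 of them were at least 2-fold higher than in Non-T cells: RTP4, TNFSF10, XAF1, IFI6 and IFI27. With SUB1 siRNA 1 none of the 9 was 2-fold higher, 6 had a ratio above 0 and 3 had a ratio below 0. Over all 19218 genes, 0.614% were at least 2-fold higher with siRNA 2 and 0.208% with siRNA 1, while 1.07% and 0.609% were at least 2-fold lower. Since the genes were chosen from these ratios, nothing is read from that contrast of shares. The median log2 ratio of the 9 genes was 1.02 with siRNA 2 and 0.33 with siRNA 1, beside a median of 0.02 over all genes on either array. At the 2-fold threshold with siRNA 2, IFI27 lay just inside at 1.02 and IFI44L was the nearest outside at 0.59. In RNA of a whole culture, more expression per cell and more expressing cells cannot be told apart.

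**Figure D1:**
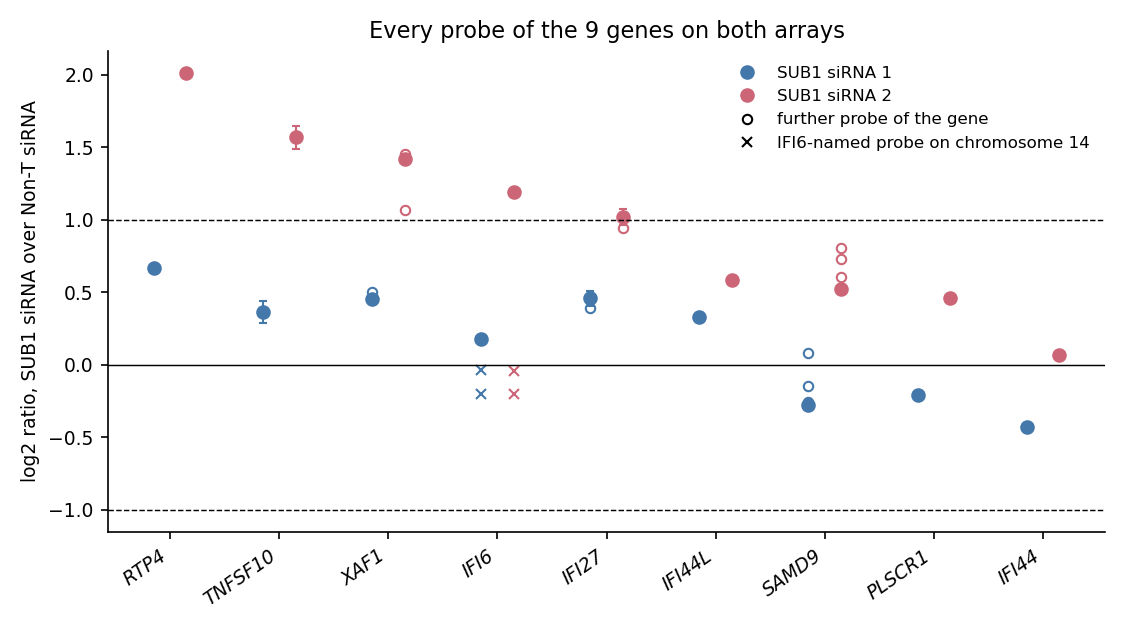
Log2 ratio to Non-T siRNA cells (y axis) for every probe of the 9 genes (x axis, ordered by the siRNA 2 ratio), with siRNA 1 in blue and siRNA 2 in red. Filled circles are the brightest probe of each gene, open circles its further probes, crosses the IFI6-named probes on chromosome 14, bars the SD among 10 spots (9 for TNFSF10 with siRNA 1) and dashed lines a 2-fold change. Filled siRNA 2 circles reach from 0.07 to 2.01 and filled siRNA 1 circles from -0.43 to 0.67.

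RTP4 had the highest ratio of the 9 genes on both arrays. The normalized log2 signal of its probe in Non-T cells was 8.07 beside siRNA 1 and 8.28 beside siRNA 2. In SUB1 siRNA cells it was 8.74 and 10.30. RTP4 was thus 1.59-fold higher with siRNA 1 and 4.04-fold higher with siRNA 2, log2 ratios of 0.67 and 2.01. Among all 19218 genes it ranked 278 from the top with siRNA 1 and 2 with siRNA 2. RTP4 has 1 probe, at hg18 chr3:188571949-188572008, spotted once, and the error that the scanner software gives for such a spot was 0.22 and 0.29 on the log2 scale.

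TNFSF10, the gene of the death ligand TRAIL, came next with siRNA 2. Its signal in Non-T cells was 7.94 and 7.85, against 8.30 with siRNA 1 and 9.42 with siRNA 2. The ratio was 1.29-fold (log2 0.36 ± 0.08, SD among 9 spots) with siRNA 1 and 2.96-fold (log2 1.57 ± 0.08, SD among 10 spots) with siRNA 2. Its probe (hg18 chr3:173706560-173706619) is spotted 10 times, and 1 spot on the siRNA 1 array was left out as an outlier. The spots with siRNA 1 ran from 0.24 to 0.49 and those with siRNA 2 from 1.43 to 1.69, so the spots of the arrays did not overlap. The difference taken spot by spot was 1.21 ± 0.11 (SD, 9 spots) and at least 0.98 in each. Spots of 1 array share 1 labelled RNA and measure technical spread alone.

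XAF1 was measured by 3 probes over hg18 chr17:6617255-6619602. The brightest had a signal of 8.14 and 8.22 in Non-T cells, 8.60 with siRNA 1 and 9.64 with siRNA 2. XAF1 was 1.37-fold higher with siRNA 1 (log2 0.45) and 2.67-fold higher with siRNA 2 (log2 1.42), rank 945 and rank 23 of all genes. Each of the 3 probes was higher with siRNA 2 than with siRNA 1. They lay between 0.44 and 0.50 with siRNA 1, and between 1.07 and 1.45 with siRNA 2, where all 3 passed 2-fold. The lowest of them with siRNA 2, at 1.07, was the probe with the dimmest signal in Non-T cells, at hg18 chr17:6619543-6619602. By the scanner software's own ratios this probe was not the lowest. It read 1.68 there, beside 1.63 for the brightest probe and 1.83 for the remaining probe.

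IFI6 showed little difference from Non-T cells with siRNA 1 and a clear one with siRNA 2. Its signal in Non-T cells was 13.67 and 13.52, against 13.84 with siRNA 1 and 14.71 with siRNA 2. The ratio was 1.13-fold (log2 0.18) and 2.28-fold (log2 1.19), and the rank 4830 and 51. These values come from the probe at hg18 chr1:27865424-27865483. A pair of further probes carry the name IFI6 in the array files but are placed on another chromosome, at hg18 chr14:105279296-105279355 and chr14:105762730-105762789, while RefSeq places IFI6 on chromosome 1. The first read -0.03 with siRNA 1 and -0.04 with siRNA 2, and the other was not well above background in any channel and did not pass the filter. When all kept probes of a gene were averaged instead, the probe on chromosome 14 brought IFI6 to 0.57 with siRNA 2.

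IFI27 was higher with both siRNAs and lay at the 2-fold threshold with siRNA 2. Its signal was 15.32 and 15.11 in Non-T cells, 15.77 with siRNA 1 and 16.12 with siRNA 2. The ratio was 1.37-fold (log2 0.46 ± 0.05, SD among 10 spots) with siRNA 1 and 2.02-fold (log2 1.02 ± 0.05, SD among 10 spots) with siRNA 2. Spots ran from 0.37 to 0.57 and from 0.94 to 1.12, again without overlap between the arrays. A second probe that overlaps the first (hg18 chr14:93652682-93652741 and chr14:93652720-93652779) gave 0.39 and 0.94, so the probes fell on either side of 2-fold with siRNA 2. With the processed signals of the scanner software IFI27 stood at 0.85, below 2-fold.

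**Figure D2:**
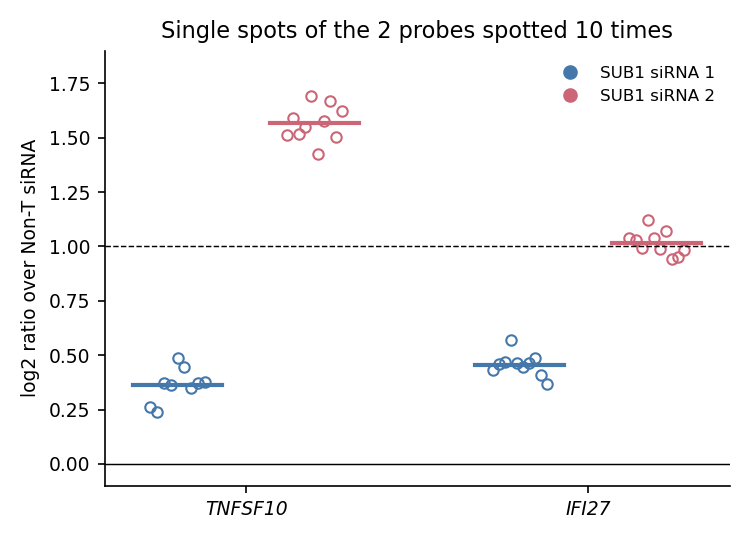
Log2 ratio over Non-T siRNA (y axis) of each single spot of the TNFSF10 and IFI27 probes (x axis), each spotted 10 times, for siRNA 1 (blue) and siRNA 2 (red). Horizontal bars are means over spots and the dashed line is a 2-fold change. The lowest siRNA 2 spot lies above the highest siRNA 1 spot in both genes (1.43 against 0.49 for TNFSF10, 0.94 against 0.57 for IFI27).

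IFI44L and IFI44, which lie next to each other on chromosome 1, had different ratios. IFI44L, at hg18 chr1:78880178-78880237, had a signal of 11.22 and 11.27 in Non-T cells, 11.54 with siRNA 1 and 11.86 with siRNA 2. It was 1.26-fold (log2 0.33) and 1.50-fold (log2 0.59) above Non-T cells, the smallest difference between the siRNAs of the 9 genes. IFI44, at hg18 chr1:78901067-78901126, had a signal of 12.73 and 12.86 in Non-T cells, 12.30 with siRNA 1 and 12.92 with siRNA 2. Its log2 ratio was -0.43 with siRNA 1, the lowest of the 9 genes, and 0.07 with siRNA 2. Each gene has 1 probe spotted once.

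PLSCR1 and SAMD9 were below Non-T cells with siRNA 1 and above them with siRNA 2, though with median centring the siRNA 1 ratio of PLSCR1 was 0.10 and that of SAMD9 was -0.00015. PLSCR1 (1 probe, hg18 chr3:147715752-147715811) had a signal of 12.82 and 12.91 in Non-T cells, 12.61 with siRNA 1 and 13.37 with siRNA 2, log2 ratios of -0.21 and 0.46. SAMD9 had a signal of 12.17 and 12.26 in Non-T cells, 11.89 with siRNA 1 and 12.78 with siRNA 2, log2 ratios of -0.28 and 0.52. Its 4 probes over hg18 chr7:92566815-92569151 lay between -0.28 and 0.08 with siRNA 1, and between 0.52 and 0.80 with siRNA 2. All 4 were above 0 with siRNA 2. With siRNA 1 the 3 probes nearer the low-coordinate end were below 0, and the fourth, the dimmest, was above it.

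Ordered by the siRNA 2 ratio, the genes ran RTP4, TNFSF10, XAF1, IFI6, IFI27, IFI44L, SAMD9, PLSCR1 and IFI44. Of the 8 gaps between neighbours, 3 were larger than the combined spot error of the scanner software. These were the gap of 0.45 from RTP4 to TNFSF10, of 0.43 from IFI27 to IFI44L and of 0.39 from PLSCR1 to IFI44. The other 5 gaps were within the combined error, and the error of a single ratio lay between 0.20 and 0.29. The gaps were taken between the ratios reported here, while the error belongs to the software's own ratios. Those were 2.30 for RTP4, 1.97 for TNFSF10, 1.63 for XAF1, 1.19 for IFI6, 0.85 for IFI27 and 0.65 for IFI44L. Between them the gaps from RTP4 to TNFSF10 and from IFI27 to IFI44L lay within the combined error (0.40 and 0.30). Those from XAF1 to IFI6 and from IFI6 to IFI27 lay beyond it (0.34 and 0.32). By the software's own ratios, 8 of the 9 genes were over 2 times their error above 0 with siRNA 2, with IFI44 the exception. With siRNA 1 only RTP4, TNFSF10 and XAF1, 3 of the 9, were that far from 0 in either direction.

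The difference between the arrays, the log2 ratio with siRNA 2 minus that with siRNA 1, was above 0 for all 9 genes. It was 1.34 for RTP4, 1.20 for TNFSF10, 1.01 for IFI6, 0.96 for XAF1, 0.80 for SAMD9, 0.67 for PLSCR1, 0.56 for IFI27, 0.49 for IFI44 and 0.26 for IFI44L. RTP4, TNFSF10 and IFI6 were past a difference of 2-fold, as were 0.65% of all genes, and the choice of the genes used this difference. IFI6 and XAF1 lay so near this threshold that IFI6 fell below it under 3 of the 10 alternatives and XAF1 passed it under 2. The median was 0.80, beside 0.00 (-0.0021) over all genes. By the software's own ratios, the difference was over 2 times an error combined from the spot errors of both arrays in 6 genes. It was under that for IFI27, IFI44 and IFI44L, and for IFI44L it was smaller than the combined error itself (0.30). That error is for a single spot, while IFI27 was spotted 10 times. Its difference taken spot by spot was 0.56 ± 0.05 (SD, 10 spots), from 0.46 to 0.61.

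**Figure D3:**
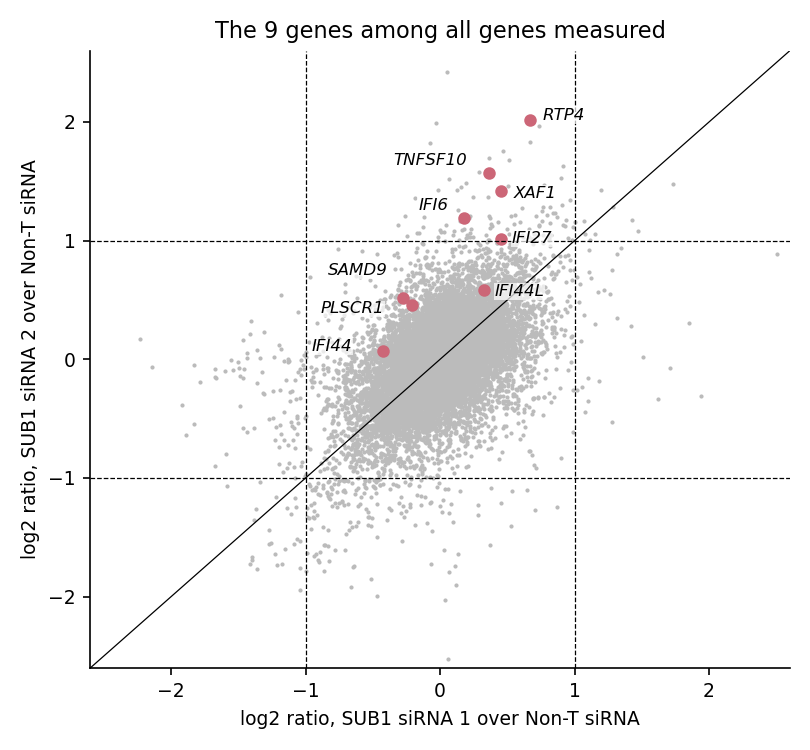
Log2 ratio over Non-T siRNA with siRNA 1 (x axis) and siRNA 2 (y axis) for all genes (grey) and the 9 genes (red, named). Dashed lines mark a 2-fold change and the diagonal equal ratios, and 1 gene, SUB1, lies beyond the axes, which end at 2.6. All 9 genes lie above the diagonal, and RTP4 has the second highest siRNA 2 ratio of all genes.

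A ratio can differ between arrays through either channel, so each channel was compared between arrays. In Cy3, the Non-T channel, the 9 genes differed by -0.21 (IFI27) to 0.21 (RTP4) between arrays on the log2 scale, with a median of 0.08. The SD of that difference over all genes was 0.12. In Cy5, the SUB1 siRNA channel, the same probes were higher on the siRNA 2 array by 0.31 (IFI44L) to 1.56 (RTP4), with a median of 0.87, where the SD over all genes was 0.31. For RTP4 the Non-T signal was itself higher on the siRNA 2 array, where its ratio was larger. For IFI27 the lower Non-T signal on the siRNA 2 array made up 0.21 of the 0.56 difference, and the Cy5 signal 0.35. All 9 brightest probes were well above background in both channels on both arrays, and no spot was saturated. The labels do not say whether both arrays carried the same Non-T RNA. Without a dye swap, a bias of a probe toward 1 dye and an effect of SUB1 siRNA cannot be told apart in any single ratio.

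**Figure D4:**
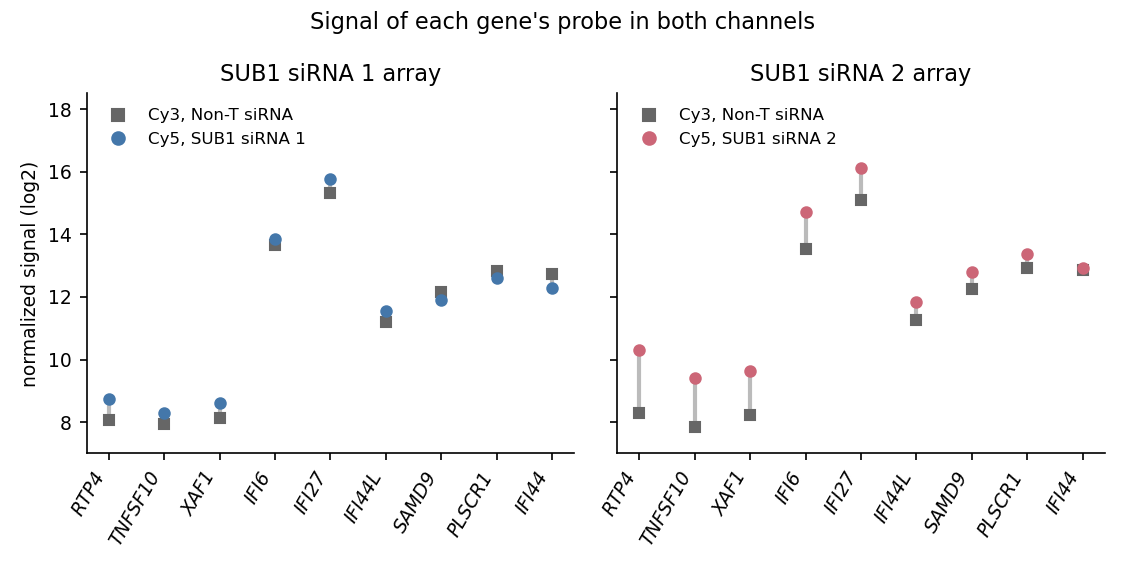
Normalized log2 signal (y axis) of the brightest probe of each gene (x axis) in Non-T siRNA cells (grey squares, Cy3) and SUB1 siRNA cells (coloured circles, Cy5) on the siRNA 1 array (left) and the siRNA 2 array (right). The grey lines join the channels, and their length is the size of the log2 ratio. Squares of a gene differ by at most 0.21 between arrays, while circles are higher on the right by 0.31 to 1.56. Heights of different probes are not comparable.

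The pathway around these genes was examined through 7 lists of genes chosen by function, which held 65 genes, 54 of them measured. With siRNA 1 none of the 54 was past 2-fold in either direction. With siRNA 2 SAMD9L was higher and BIRC5 lower, 1 gene in each direction. Over all genes, 0.208% were at least 2-fold higher and 0.609% lower with siRNA 1, and 0.614% and 1.07% with siRNA 2. At such low shares few of any 54 genes would pass, and nothing is read from these counts. The list medians below stand beside a median of 0.02 over all genes on either array. Of the interferon ligands 4 of 8 were measured, with medians of 0.11 and 0.17 with siRNA 1 and siRNA 2. With the processed signals of the scanner software these medians were 0.32 and 0.60. IFNB1, the gene of interferon beta, had log2 ratios of 0.11 and 0.37, and 1.47 with siRNA 2 when the processed signals of the scanner software were used. IFNE, interferon epsilon, had 0.39 and 0.07. A stricter filter on dim probes left IFNE out, and the medians of the ligands became 0.10 and 0.26. Of the receptors 5 of 6 were measured, with medians of -0.02 and 0.12. IFNGR1, a chain of the interferon gamma receptor, stood at 0.26 and 0.49, and IFNLR1, a chain of the interferon lambda receptor, at -0.02 and 0.45.

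The 11 signalling and transcription factors, all measured, had medians of -0.09 and 0.15. IRF9, a DNA-binding partner of STAT2, had ratios of 0.54 and 0.62. IRF5, a transcription factor of the innate response, had -0.55 and 0.02. The 5 negative regulators, all measured, had medians of 0.12 and 0.20. Of these SOCS1 and SOCS3, inhibitors of JAK signalling, stood at 0.15 and 0.41 and at 0.16 and 0.48.

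Among paralogs of the 9 genes, 5 of 9 were measured, with medians of -0.12 and 0.23. With the mean of all kept probes of a gene the siRNA 2 median was 0.06. SAMD9L, which lies beside SAMD9 on chromosome 7 and encodes a related protein, had log2 ratios of -0.12 with siRNA 1 and 1.20 with siRNA 2. IFI27L1 and IFI27L2, which flank IFI27 on chromosome 14, had smaller ratios than IFI27 with both siRNAs, 0.09 and 0.31 for IFI27L1 and 0.22 and 0.23 for IFI27L2. PLSCR4, a scramblase relative of PLSCR1, had -0.69 and -0.12, and -1.25 with siRNA 1 with processed signals.

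Of the partners of TNFSF10 and XAF1 only BIRC5 was past 2-fold; with median centring it was not (-0.92 with siRNA 2), and with processed signals APAF1, the scaffold of the apoptosome, was (1.11 with siRNA 1). Of the TRAIL receptors and their death signalling, 10 of 12 genes were measured, with medians of 0.00 (0.00032) and 0.16. CASP8, the initiator caspase of death receptors, stood at 0.31 and 0.29, and BID, which carries the signal to mitochondria, at -0.17 and -0.42. The 14 partners of XAF1 and genes of the mitochondrial pathway, all measured, had medians of 0.06 and 0.14. XIAP, the binding partner of XAF1, had 0.24 with both siRNAs. BIRC5, the gene of survivin, an inhibitor of apoptosis that also acts in mitosis, had -0.99 and -1.25, and BCL2L1, an anti-apoptotic gene, had -0.56 and -0.40.

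The genes with the pair of ratios most like XAF1 and RTP4 were found by distance over both arrays, 2 values per gene. Nearest to XAF1 were ZBTB1, a zinc-finger transcription factor gene (0.51 and 1.46), APOL3, an apolipoprotein L gene (0.35 and 1.36), and TNFSF10 (0.36 and 1.57). Nearest to RTP4 were a transcript that the array files name BC010544 (0.74 and 1.97), ISG15, which encodes a ubiquitin-like interferon-induced protein (0.67 and 1.83), and GDF15, which encodes a stress-induced secreted factor (0.47 and 1.76). A likeness over 2 arrays is a likeness of 2 values.

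**Figure D5:**
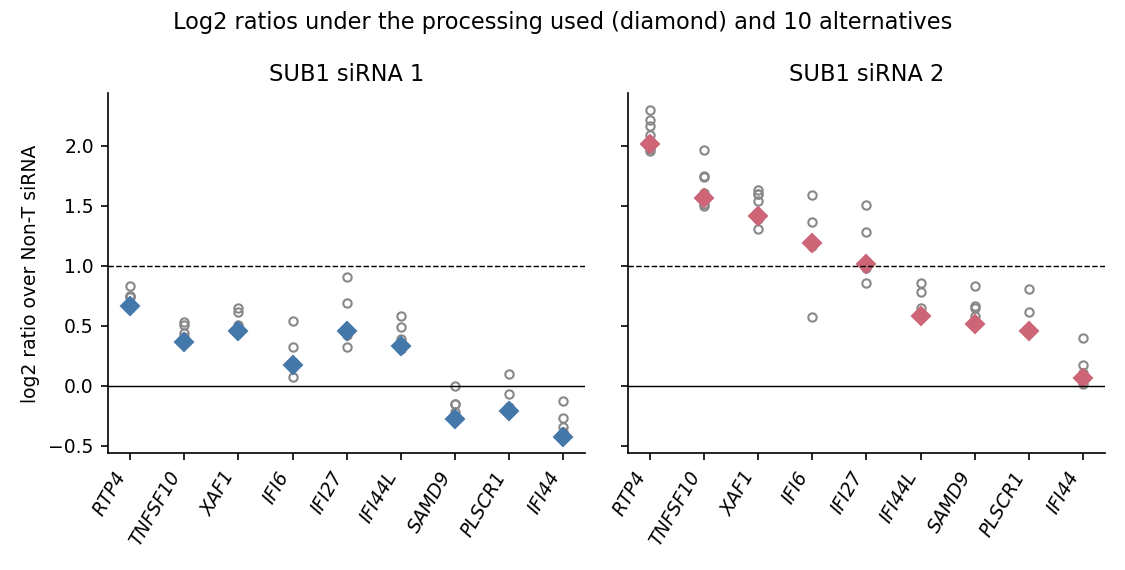
Log2 ratio over Non-T siRNA (y axis) of each of the 9 genes (x axis) with siRNA 1 (left) and siRNA 2 (right), as reported (diamonds) and under 10 other ways of processing the arrays (open circles). The solid line is 0 and the dashed line a 2-fold change. With siRNA 2 RTP4 ran from 1.96 to 2.30, XAF1 from 1.31 to 1.63 and IFI27 from 0.85 to 1.50, and with siRNA 1 no circle reached 2-fold.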

How the data were processed

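Gene expression was measured in PC3 cells on 2 dual-colour Agilent whole human genome arrays. The files deposited by the authors come from Feature Extraction and hold, spot by spot, intensity and local background of Cy3 and Cy5, flags, and the software's log10 ratio with its error. They also deposited log2 ratios per probe, normalized by loess, which served as an alternative. Here mean intensities were background-corrected by normexp (offset 50, local median background) and normalized within arrays by loess with a span of 0.3 (limma 3.58.1, R 4.3.3). Channel signals were further scaled between arrays by Aquantile. Outlier spots (112 and 100) were left out and spots of a probe averaged. The filter required, on both arrays, that a share of 0.5 or more of a probe's spots be well above background in either channel; 25672 of 41000 probes passed, with 16 of the 17 probes of the 9 genes. The brightest probe stood for a gene. Of the 19218 genes, 13129 were named through a RefSeq table and 6089 kept the name in the files. Probe coordinates are those of the file headers (hg18), and exon and UTR annotation of that build was not used here. Promoters are RefSeq sequences of GRCh38.p14.

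A change was an absolute fold change of 2, as in the study's methods, which name no test for the arrays. With 1 array per siRNA there is no replicate check, and the number of arrays limits the precision. The errors given are the SD among spots, the range over probes, and the software's error of a spot; all are technical. The 9 genes and the lists were chosen with earlier results of these data known. Named were SUB1, the 9 genes with every probe, of each list the genes past 2-fold and the 2 with the largest absolute mean ratio, and the 3 genes nearest to XAF1 and to RTP4; IFI27L1, IFI27L2 and XIAP were added after their values were seen. The processing was tested on simulated data: 200 bright spots raised by a log2 ratio of 2 returned a median of 1.93 (siRNA 1) and 1.92 (siRNA 2). The lowest values returned were 1.71 and 1.59. All of these spots were well above background in both channels of both arrays, so the recovery does not cover dimmer spots. Protein sequences of the genes, planned as a comparison, were not analysed here. Some genes of the lists and markers are not reported here by name.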

Additional observations from a re-analysis of the deposited data

Results flagged for a closer look

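For 3 of the 9 genes the array of siRNA 1 read below Non-T cells and the array of siRNA 2 above them. The difference between the log2 ratios was 0.80 for SAMD9, 0.67 for PLSCR1 and 0.49 for IFI44. With 1 array per siRNA these differences were not tested. SAMD9 is the only 1 of the 3 with more than 1 probe, and 3 of its 4 probes showed the opposite signs. The siRNA 1 ratios were -0.28 for SAMD9, -0.21 for PLSCR1 and -0.43 for IFI44, none of them over 2 times the software's spot error by its own ratios, and the siRNA 2 ratio of IFI44, 0.07, was within that error. When arrays were centred on their medians and loess was not used, the siRNA 1 ratio of PLSCR1 was 0.10, that of SAMD9 was -0.00015 and that of IFI44 was -0.13.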

How the results depend on the processing

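Over the 10 alternatives, the difference between siRNAs kept its sign in 90 of 90 values for the 9 genes, the siRNA 2 ratio in 90 of 90 and the siRNA 1 ratio in 89 of 90, PLSCR1 under median centring being the exception. No gene of the 9 was 2-fold higher with siRNA 1 under any of them, and none that was past 2-fold changed sign. The difference between siRNAs kept its side of 2-fold in 85 of 90 values: that of IFI6 fell below it with median spot signals (0.997), processed signals (0.99) and the mean of all kept probes (0.50), and that of XAF1 passed it with processed signals (1.18) and an offset of 16 (1.04). The siRNA 1 medians of the lists changed sign under median centring for the receptors (0.13), the signalling factors (0.08) and the paralogs (0.11), with the authors' ratios for the receptors (0.06) and the paralogs (0.07), with processed signals for the receptors (0.02), and, from 0.00032, with the mean of all kept probes (-0.04), an offset of 16 (-0.0044) and median spot signals (-4.0e-05) for the TRAIL list. With siRNA 2 the count of 5 became 4 without background correction, with median spot signals and with the software's processed signals, where IFI27 stood at 0.995, 0.993 and 0.85. With the mean of all kept probes it became 3, the median with siRNA 2 became 0.66 and the median difference 0.67; this mean takes in the second probe of IFI27 and the IFI6-named probe on chromosome 14. Centring on the array median moved the medians to 0.54 (siRNA 1) and 1.50 (siRNA 2), the authors' log2 ratios to 0.44 and 1.29, and the processed signals the siRNA 2 median to 0.85; the cause was not tested. Median centring put the median of all genes at 0.13 and 0.12. With the mean of all kept probes, siRNA 2 medians became 0.06 for the paralogs, 0.09 for the negative regulators and 0.07 for the TRAIL list. That of the XAF1 partners rose to 0.25. The share of higher genes among all changed genes was 25.5% and 36.5% as reported, 71.0% and 72.5% with median centring, 72.4% and 67.9% with processed signals, 36.7% and 47.4% with the authors' ratios, and 37.0% with siRNA 1 under a normexp offset of 16. The numbers of genes at least 2-fold higher with siRNA 1 and siRNA 2 were 40 and 118 as reported, 137 and 266 with median centring, 778 and 997 with processed signals, 58 and 148 with the authors' ratios, and 84 and 189 with an offset of 16. Those at least 2-fold lower were 117 and 205 as reported, 56 and 101 with median centring, and 297 and 471 with processed signals. No paired analysis was possible because each siRNA has 1 array and no test was made.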

Other observations

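Of the 3 probes named KLK3, the gene of prostate-specific antigen, which PC3 cells are known to lack, the brightest had a Cy3 intensity of 18634 (siRNA 1 array) and 15436 (siRNA 2 array), with log2 ratios of 0.30 and 0.21. The other 2 KLK3 probes were not well above background in Cy3.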
